A study of Homo sapiens with 8 samples.

Results

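The genes described here are 37 lysosomal genes, measured in NB4, an acute promyelocytic leukaemia cell line from a human patient. They comprise 8 proteases, 10 glycosidases, other hydrolases and activators, 9 membrane proteins and lipid carriers, 4 parts of the proton pump, and 6 regulators or receptors. They are a list of names, drawn up with earlier results of these data known. All 37 were found among the 18132 genes with a probe set of 1 gene, each was represented by the probe set of highest mean signal, and all 37 were among the 12845 genes tested. Cells received lentivirus carrying a scrambled control (scramble) or 1 of 3 hairpins against the cell cycle kinase CDK2 (shCDK2 #1, #3 and #10), at a multiplicity of infection of 10. RNA was taken at day 2, described by the submitters as early differentiation, or at day 5, described as late. Each of the 8 combinations of construct and day was hybridised to 1 Affymetrix array. Every group, scramble included, was transduced, and a group without virus was not analysed here. The labels do not say whether the arrays came from separate cultures, so p-values cover the spread between these arrays, which may be technical. In the comparisons of constructs, the 2 days of a construct were its only repeats. A change that differed between the days therefore counted as spread there. In such bulk samples, a change in the number of cells of a type and a change in RNA per cell cannot be told apart.

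Lysosomes are acidic organelles in which hydrolases break down protein, glycans and lipids taken up by the cell or delivered by autophagy. The V-type proton pump keeps the lumen acid, membrane proteins shield and transport, and the transcription factors TFEB, TFE3 and MITF, which are held at the lysosome by Rag GTPases, can raise transcription of many lysosomal genes through E-box elements near their start sites. Macrophages and other phagocytes are rich in lysosomes, while promyelocytes are known for azurophil granules, which are related organelles.

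The CDK2 signal did not follow the labels on every array. In the brightest CDK2 probe set, hairpin arrays stood at 39.9% (#1), 95% (#3) and 34.0% (#10) of the same-day scramble at day 2, and at 81.1%, 72.3% and 92.9% at day 5. The arrays labelled shCDK2 #3 at day 2 and #10 at day 5 therefore lay close to same-day scramble, and the array labelled scramble at day 5 (8.19 log2) lay below its day 2 counterpart (9.10 log2). Directions below are those of the libraries as labelled. No array duplicated another, array medians lay between 6.3 and 6.43 log2, and MPO, a gene of azurophil granules, was between 13.37 and 14.39 log2 on all arrays.

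The lysosomal genes were mostly higher than in scramble with hairpin #10, less often with #3, and split about evenly with #1; these differences in counts were not tested. In #10, 5 of the 37 rose against scramble on both days together at an adjusted p under 0.05 (limma, Benjamini-Hochberg over all tested genes), and 0 fell: SCARB2, PSAP, CTSB, NPC2 and RRAGD. Of all tested genes, 2.01% were called in that comparison. The fitted change was above 0 for 29 members and below 0 for 8, where 38.7% of all tested genes were above 0. The median was 0.66 log2, against -0.09 over all tested genes. Both #10 arrays lay above same-day scramble for 28 members and below it for 6, where 26.3% of all tested genes lay above and 41.7% below on both days. An unadjusted p under 0.05 was reached by 19 members that were higher and 3 that were lower, and by 20.2% of all tested genes. Without either scramble array 0 members and 0% of all tested genes passed, while the changes kept their sign: SCARB2 had 3.92 and 2.40 log2 without the array of day 2 and of day 5, PSAP 1.63 and 1.48, CTSB 2.32 and 1.62, NPC2 1.74 and 1.79, and RRAGD 1.31 and 1.5 log2. Without either #3 array 13 members passed, and so did 7.47% of all tested genes. Leaving out either #10 array left 1 array of that hairpin. Without that of day 5, CTSB had 1.37 log2 and was no longer called. Without that of day 2, NPC2 had 1.58 log2 and RRAGD 1.04 log2, and neither was called.

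**Figure D1:**
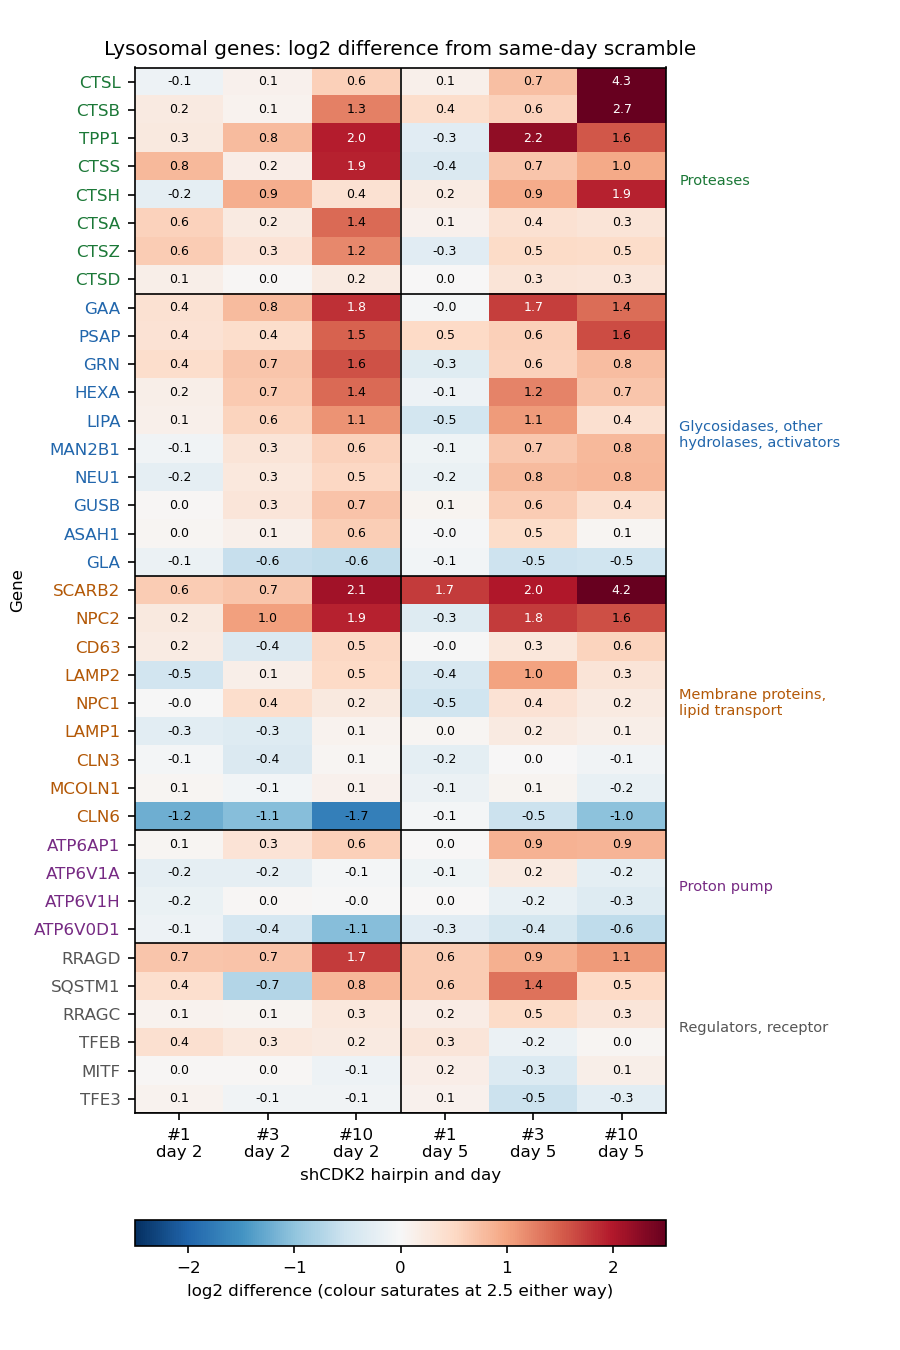
Log2 difference of each of the 37 genes (rows, grouped by role) from the same-day scramble array in the 6 hairpin arrays (columns), 1 array per cell with the value printed. The #10 columns and the #3 day 5 column hold most of the high values, and CLN6, GLA and ATP6V0D1 are below 0 in all 6 columns.

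Hairpins #3 and #1 gave no call among these genes. With #3, 0 of 37 passed, beside 0.0311% of all tested genes. There, 26 members were above 0 (40.9% of all tested genes), with a median of 0.40 log2 (all genes -0.07). Both days lay above scramble for 24 members and below for 4, against 23% and 25.1% of all tested genes. At an unadjusted p under 0.05, 13 members were higher and 2 lower, with 9.47% of all tested genes past that threshold. With #1, 0 of 37 passed and 0% of all tested genes did. There, 21 members were above 0 (46.3% of all tested genes), with a median of 0.02 log2 (all genes -0.02). On both days 13 lay above scramble (21.1% of all tested genes). Another 9 lay below it. The share of all tested genes below on both days is not given here, so the 9 cannot be weighed against it. Unadjusted, 3 members with #1 were higher and 1 lower, with 1.33% of all tested genes past the threshold.

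Hairpins #10 and #1 were also set against each other, so that the level in scramble did not enter the difference. It gave 0 calls among the 37 at an adjusted p under 0.05, with 0.327% of all tested genes called. The fitted difference was above 0 for 30 members (41% of all tested genes), with a median of 0.52 log2 (all genes -0.08). On both days #10 lay above #1 for 27 members, as it did for 31.6% of all tested genes. It lay below #1 for 6. The matching share of all tested genes is not given here, so the 6 cannot be weighed against it. Unadjusted, 19 members were higher and 3 lower, and 15.8% of all tested genes passed. The members nearest to a call were PSAP (difference 1.12 log2, SE 0.17, adjusted p = 0.0528) and NPC2 (1.80 log2, SE 0.30, adjusted p = 0.0667). Both lay higher in #10 than in #1 on each day. CTSL (2.44 log2, adjusted p = 0.199), SCARB2 (1.98 log2, adjusted p = 0.0956) and TPP1 (1.78 log2, adjusted p = 0.123) had wider errors (SE 0.78, 0.43 and 0.43). The lowest differences were CLN6 (-0.72 log2, adjusted p = 0.257), ATP6V0D1 (-0.64 log2, adjusted p = 0.191), GLA (-0.44 log2, adjusted p = 0.259) and TFE3 (-0.27 log2, adjusted p = 0.530). Without the #3 arrays, whose spread enters this fit, 7 members passed (GAA, LAMP2, MAN2B1, NEU1, NPC2, PSAP and TPP1), with 4.76% of all tested genes. Without the #10 array of day 2, 4 passed (CTSB, CTSH, CTSL and SCARB2), with 1.2% of all tested genes.

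**Figure D2:**
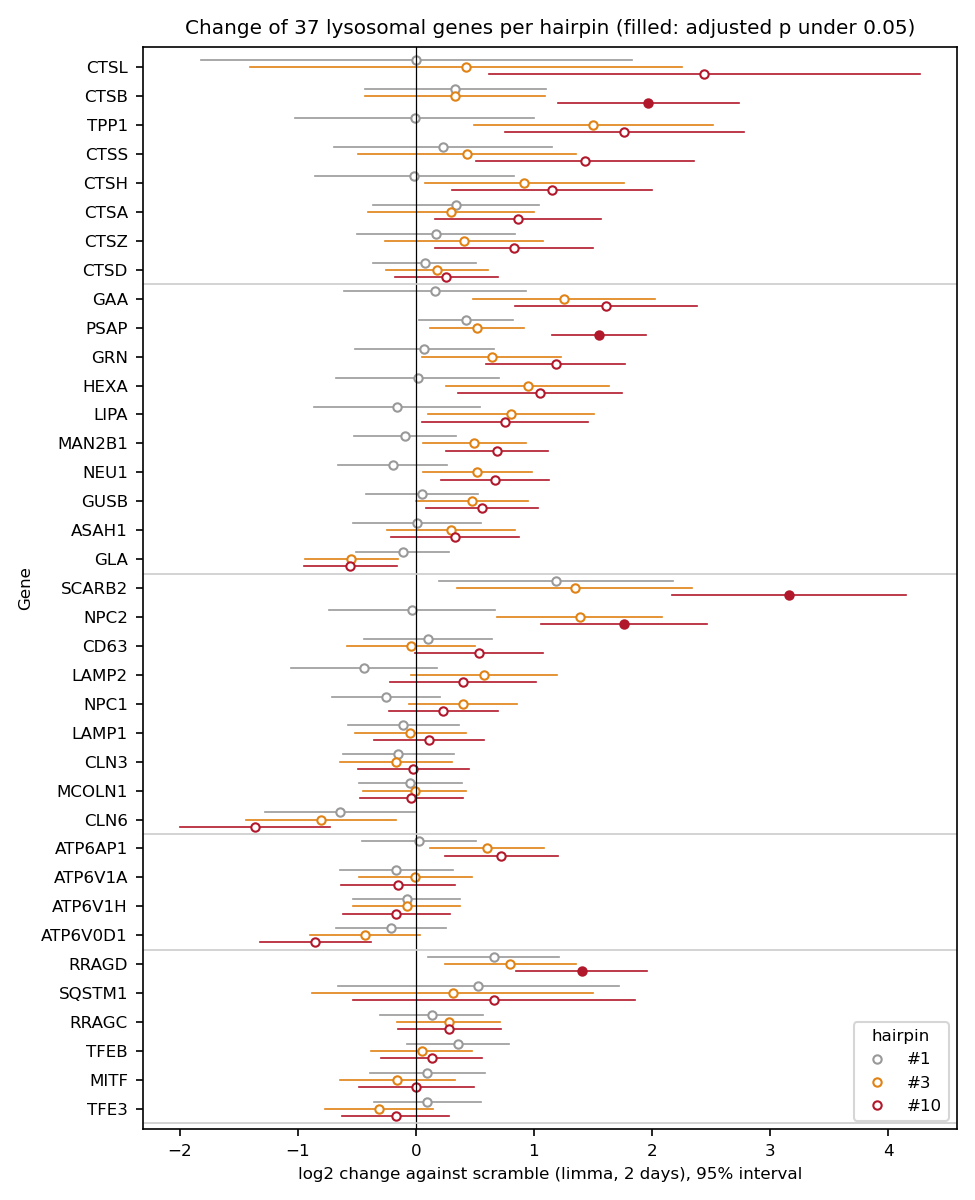
Fitted log2 change of each gene against scramble over both days, with its 95% interval, for hairpins #1 (grey), #3 (orange) and #10 (red), and filled points for an adjusted p under 0.05. The 5 filled points are all #10: CTSB, PSAP, SCARB2, NPC2 and RRAGD.

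The proteases degrade protein in the lysosome. All 8 had a fitted change above 0 in #10 (median 1.30 log2) and in #3 (median 0.42 log2), and 6 of 8 did in #1 (median 0.12 log2). Of all tested genes, 38.7%, 40.9% and 46.3% were above 0 in #10, #3 and #1. Of the 8, 1 rose, CTSB in #10, where 2.01% of all tested genes were called. CTSB encodes cathepsin B, a cysteine protease. Its signal was 9.24 log2 in scramble, 9.47 in #1, 9.34 in #3 and 10.49 in #10 at day 2, and 8.82, 9.26, 9.39 and 11.50 in that order at day 5. Both #10 arrays were above all the others, which overlapped across constructs. The change in #10 was 1.97 log2 (SE 0.33, 95% interval 1.21 to 2.73, 3.92-fold, adjusted p = 0.0413), and all 4 CTSB probe sets were higher, by 1.16 to 1.97 log2. Without the #10 array of day 5 the change was 1.37 log2 and missed the threshold (adjusted p = 0.0609).

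CTSL, the cysteine protease cathepsin L, had its high value on a single array. It lay between 6.20 and 6.91 log2 on the 4 arrays of day 2. At day 5 it was 6.33 in scramble, 6.46 in #1, 7.08 in #3 and 10.62 in #10. The fitted change in #10 (2.44 log2, SE 0.78) did not pass (adjusted p = 0.14), and the days differed (0.60 and 4.29 log2). With the day 2 array of #10 left out it was 4.14 log2 and passed (adjusted p = 7.52e-04), a value that rests on that 1 array. One probe set of 1 gene measured CTSL.

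TPP1, a serine protease that removes tripeptides, was high in 3 arrays. Its signal was 9.67 (scramble), 9.92 (#1), 10.46 (#3) and 11.64 log2 (#10) at day 2. At day 5 it was 10.01, 9.74, 12.23 and 11.57 log2. The #1 and scramble arrays overlapped, and every #3 and #10 array lay above them. The changes were 1.77 log2 in #10 (SE 0.43, adjusted p = 0.0830), 1.5 log2 in #3 (SE 0.43, adjusted p = 0.360) and -0.01 log2 in #1 (SE 0.43). A second TPP1 probe set gave 1.25 log2 in #10, and the other 7, with mean signals of 6.32 to 7.0 log2, gave 0.09 to 0.44 log2.

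The other cathepsins had different day patterns. CTSS, a cysteine protease of antigen-presenting cells, was 1.92 log2 above scramble at day 2 and 0.95 at day 5 in #10 (fit 1.44 log2, SE 0.40, adjusted p = 0.102). CTSA, a carboxypeptidase that also protects neuraminidase, was 1.42 log2 above scramble at day 2 and 0.32 at day 5, and CTSZ, another carboxypeptidase, 1.20 and 0.46. These 3 were nearer to scramble at day 5. CTSH, an aminopeptidase, went the other way, with 0.38 log2 at day 2 and 1.93 at day 5 (fit 1.16 log2, adjusted p = 0.135), and its dimmer probe set gave -0.10 log2. CTSD, the aspartic protease cathepsin D, was farthest from same-day scramble in #3 at day 5 (0.32 log2), and its fitted change in #10 was 0.26 log2 (95% interval -0.17 to 0.69).

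**Figure D3:**
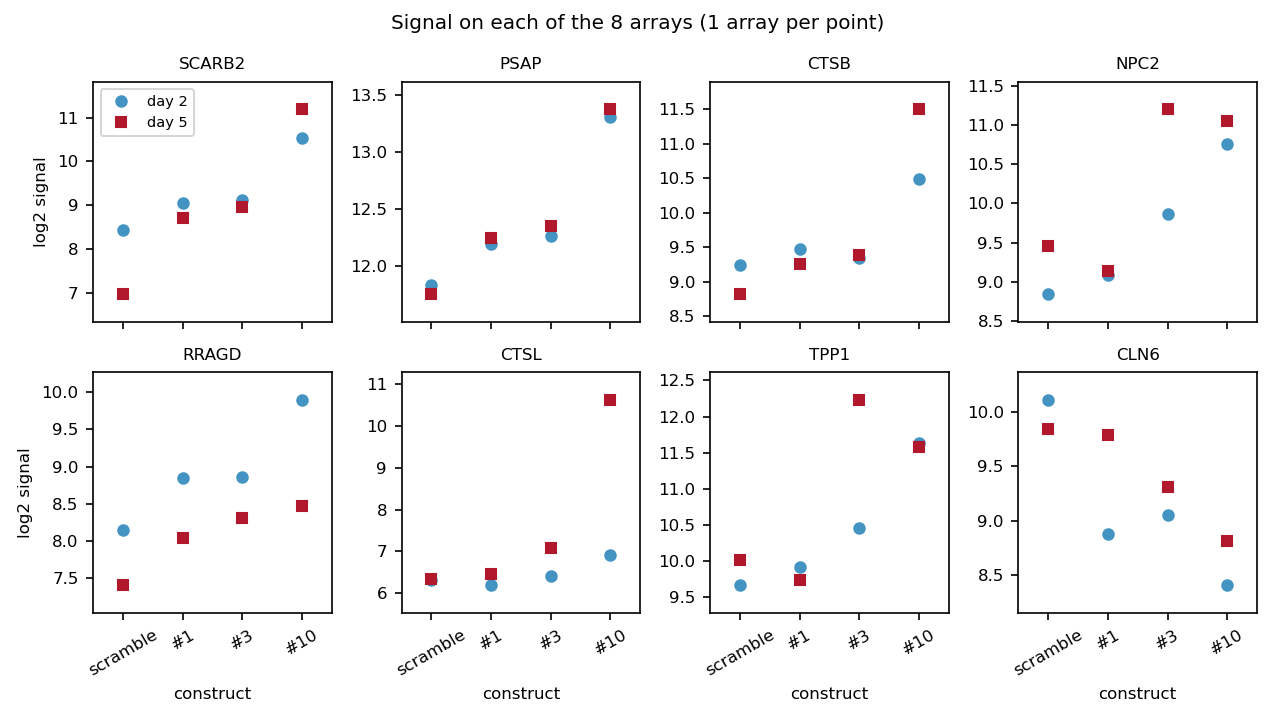
Log2 signal (vertical axes, each with its own range) of 8 genes on the 8 arrays, by construct (horizontal axis) and day (blue circles day 2, red squares day 5), 1 array per point. Both #10 points are the highest for SCARB2, PSAP and CTSB and the lowest for CLN6, whereas CTSL is high only on the #10 array of day 5 and TPP1 and NPC2 are also high on the #3 array of day 5.

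Among the glycosidases, other hydrolases and activators, 9 of 10 were above 0 in #10 (median 0.72 log2), and the same count held in #3 (median 0.52 log2), against 6 of 10 in #1 (median 0.01 log2). The shares of all tested genes were 38.7%, 40.9% and 46.3%. PSAP alone rose in #10, where 2.01% of all tested genes were called. It encodes prosaposin, the precursor of the saposins that present sphingolipids to their hydrolases. The signal was 11.83 (scramble), 12.19 (#1), 12.26 (#3) and 13.30 log2 (#10) at day 2. At day 5 it was 11.75, 12.24, 12.34 and 13.37 log2. The 2 days of a construct lay close together, and the constructs did not overlap. PSAP had the smallest error of the 5 called members: 1.55 log2 in #10 (SE 0.17, 95% interval 1.15 to 1.95, 2.93-fold, adjusted p = 0.0154), with 1.55 to 1.68 log2 over its 4 probe sets. The change was 0.51 log2 in #3 (adjusted p = 0.408) and 0.43 log2 in #1 (adjusted p = 0.9998).

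GAA, the acid glucosidase that degrades glycogen, was 6.97, 7.34, 7.77 and 8.80 log2 at day 2 in scramble, #1, #3 and #10, and 7.34, 7.29, 9.06 and 8.73 log2 at day 5. Its scramble and #1 arrays overlapped and its #3 and #10 arrays lay above them. The change was 1.61 log2 in #10 (SE 0.33, adjusted p = 0.0567) and 1.26 log2 in #3 (SE 0.33, adjusted p = 0.318). A second probe set gave -0.20 and -0.32 log2, so the probe sets of GAA disagreed. GRN, progranulin, which supports hydrolase activity, had 1.18 log2 in #10 (SE 0.25, adjusted p = 0.0627), with 0.88 and 1.00 log2 in its other probe sets. HEXA, the alpha subunit of beta-hexosaminidase, which degrades gangliosides, had 1.05 log2 in #10 (adjusted p = 0.108) and 0.95 log2 in #3 (adjusted p = 0.387). Its 8 probe sets ran from -0.04 to 1.05 log2 in #10 and from -0.02 to 0.95 log2 in #3, lowest in the dimmest.

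The remaining hydrolases had smaller values in #10. LIPA, which cleaves cholesteryl esters and triglycerides, had 0.76 log2 (SE 0.30). MAN2B1, an alpha-mannosidase, NEU1, a neuraminidase, and GUSB, beta-glucuronidase, had 0.69, 0.67 and 0.56 log2 with SEs of 0.19, 0.20 and 0.20. ASAH1, acid ceramidase, had 0.33 log2 (SE 0.23). None of these passed. GLA, the alpha-galactosidase that is deficient in Fabry disease, was the one hydrolase below 0. It was 11.11, 10.96, 10.53 and 10.50 log2 at day 2 and 10.92, 10.84, 10.41 and 10.42 log2 at day 5, in the order scramble, #1, #3 and #10. All hairpin arrays lay below same-day scramble, those of #3 and #10 lowest. The changes were -0.56 log2 in #10 (SE 0.17, adjusted p = 0.126) and -0.55 log2 in #3 (SE 0.17, adjusted p = 0.382), and all 3 GLA probe sets were below 0 in both.

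The membrane proteins and lipid carriers ranged from the highest to the lowest change of all 37 genes. In #10, 2 of 9 rose and 6 of 9 were above 0 (median 0.23 log2), beside 2.01% and 38.7% of all tested genes. In #3 and #1, 4 and 2 of 9 were above 0 (medians -0.01 and -0.11 log2), beside 40.9% and 46.3% of all tested genes. SCARB2 encodes LIMP-2, the receptor that carries glucocerebrosidase to the lysosome. Its signal was 8.43 (scramble), 9.06 (#1), 9.11 (#3) and 10.53 log2 (#10) at day 2, and 6.96, 8.71, 8.97 and 11.19 log2 at day 5. All hairpin arrays lay above both scramble arrays and both #10 arrays above all others, but the scramble array of day 5 was also 1.46 log2 below that of day 2. The change in #10 was 3.16 log2 (SE 0.43, 95% interval 2.17 to 4.16, 8.96-fold, adjusted p = 0.0218). The same fit gave 1.34 log2 in #3 (adjusted p = 0.388) and 1.19 log2 in #1 (adjusted p = 0.9998). Without the scramble array of day 5 the change in #10 was 2.40 log2 (adjusted p = 0.187). The second SCARB2 probe set above the filter read 7.14, 7.24, 7.07 and 7.80 log2 at day 2 and 7.21, 6.93, 7.41 and 8.65 log2 at day 5, which gave 1.05 log2 in #10, 0.06 in #3 and -0.09 in #1. The high #10 signal thus appeared in both probe sets, and the low scramble signal of day 5 in one.

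NPC2 is the soluble cholesterol carrier that hands sterol to the membrane protein NPC1. It was 8.84, 9.08, 9.86 and 10.76 log2 at day 2 and 9.45, 9.14, 11.21 and 11.06 log2 at day 5 in scramble, #1, #3 and #10. Both #10 and both #3 arrays lay above all scramble and #1 arrays. NPC2 rose in #10 by 1.76 log2 (SE 0.30, 95% interval 1.06 to 2.46, 3.4-fold, adjusted p = 0.0428); in #3 it had 1.39 log2 (SE 0.30, adjusted p = 0.239) and in #1 -0.03 log2 (SE 0.30). A second bright probe set gave 1.78 log2 in #10, and a dimmer one -0.18 log2. With the #10 array of day 2 left out, NPC2 had 1.58 log2 in #10 and was not called. Its partner NPC1 had 0.23 log2 in #10 (95% interval -0.22 to 0.69).

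The other membrane proteins did not pass in #10. LAMP1, an abundant glycoprotein of the lysosomal membrane, lay between 12.38 and 12.78 log2 on the 8 arrays and had 0.11 log2 in #10 (95% interval -0.36 to 0.58). LAMP2, its relative, needed for autophagy, had 0.40 log2 in #10 (adjusted p = 0.475), 0.58 in #3 and -0.44 in #1; in #3 at day 5 it lay 1.01 log2 above scramble. The 6 LAMP2 probe sets above the filter ran from -0.26 to 1.06 log2 in #10. CD63, a tetraspanin of late endosomes and granules, had 0.54 log2 in #10 (SE 0.23). MCOLN1, the lysosomal calcium channel mucolipin-1, and CLN3, a membrane protein mutated in Batten disease, had -0.04 and -0.02 log2 in #10. In these probe sets their largest difference from same-day scramble was -0.35 log2, for CLN3 in #3 at day 2. Other probe sets differed more in #3: the second of MCOLN1 gave -0.53 log2 at day 2 and 0.61 at day 5. A dimmer one of CLN3 gave 0.54 log2 at day 5.

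CLN6 had the lowest fitted change of the 37. It encodes a membrane protein of the endoplasmic reticulum that helps newly made lysosomal enzymes leave it. The signal was 10.11 (scramble), 8.88 (#1), 9.05 (#3) and 8.41 log2 (#10) at day 2, and 9.85, 9.79, 9.31 and 8.81 log2 at day 5. Every hairpin array was below both scramble arrays, with #1 at day 5 only 0.06 log2 below the same-day one. The change was -1.37 log2 in #10 (SE 0.27, 95% interval -2.00 to -0.73, adjusted p = 0.0539), -0.80 log2 in #3 (adjusted p = 0.423) and -0.64 log2 in #1 (adjusted p = 0.9998). CLN6 missed the threshold here and passed it in #10 with quantile normalization (adjusted p = 0.0413). Its second probe set gave -0.52 log2 in #10.

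The proton pump acidifies the lysosome. Of its 4 genes, 0 passed in #10 and 1 was above 0, beside 2.01% and 38.7% of all tested genes, with a median of -0.16 log2. ATP6AP1, an accessory subunit, had 0.72 log2 in #10 (SE 0.21, adjusted p = 0.110) and 0.60 log2 in #3 (SE 0.21, adjusted p = 0.423). ATP6V0D1, the subunit that joins the membrane ring to the cytosolic part, had -0.85 log2 in #10 (SE 0.20, adjusted p = 0.0775) and -0.43 log2 in #3 (adjusted p = 0.553). At day 2 it was 10.47, 10.34, 10.05 and 9.41 log2, and at day 5 it was 11.15, 10.86, 10.71 and 10.51 log2, in scramble, #1, #3 and #10. Each hairpin array was below same-day scramble. In #10, 6 of the 7 ATP6V0D1 probe sets gave -0.89 to -0.71 log2, and the other gave 0.01. ATP6V1A and ATP6V1H, a catalytic and a regulatory subunit of the cytosolic part, had -0.15 and -0.17 log2 (95% intervals -0.63 to 0.33 and -0.62 to 0.29).

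Of the 6 regulators and receptors, 5 were above 0 in #10, 4 in #3 and 6 in #1 (medians 0.21, 0.16 and 0.25 log2). The shares of all tested genes were 38.7%, 40.9% and 46.3%. In #1 all 6 lay above scramble on both days, as 21.1% of all tested genes did. Only RRAGD rose in #10, where 2.01% of all tested genes were called. It encodes RagD, one of the GTPases that bring mTORC1 and TFEB family factors to the lysosome. Its signal was 8.15 (scramble), 8.84 (#1), 8.85 (#3) and 9.90 log2 (#10) at day 2, and 7.41, 8.04, 8.30 and 8.47 log2 at day 5. Within each day scramble was lowest and #10 highest, and the groups overlapped across days because every construct was lower at day 5. The change in #10 was 1.40 log2 (SE 0.24, 95% interval 0.85 to 1.96, 2.65-fold, adjusted p = 0.0426), and its 3 probe sets gave 1.27 to 1.86 log2. It had 0.80 log2 in #3 (SE 0.24, adjusted p = 0.373) and 0.66 log2 in #1 (SE 0.24, adjusted p = 0.9998). With the #10 array of day 2 left out, RRAGD had 1.04 log2 in #10 and was not called. Its relative RRAGC, RagC, had 0.28 log2 in #10 (95% interval -0.15 to 0.72).

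The transcription factors showed small differences in signal. TFEB lay between 7.66 and 8.23 log2 on the 8 arrays, MITF between 6.54 and 7.06 log2 and TFE3 between 6.49 and 7.14 log2. Their changes in #10 were 0.13 log2 (95% interval -0.30 to 0.56), 0.00 log2 (-0.49 to 0.49) and -0.17 log2 (-0.63 to 0.28). The sign of TFE3 rests on the probe set, since a dimmer one gave 0.36 log2. A MITF probe set with a mean under the filter gave 0.46 log2 in #10 and lay above same-day scramble on every hairpin array. For TFEB the change was larger in #1 (0.36 log2, 95% interval -0.07 to 0.79). Arrays do not measure where these proteins sit or whether they are phosphorylated. SQSTM1, the autophagy receptor p62, was uneven: 10.07, 10.50, 9.34 and 10.90 log2 at day 2 and 10.19, 10.82, 11.54 and 10.69 log2 at day 5 in scramble, #1, #3 and #10. The 2 #3 arrays were its lowest and its highest, and its change in #10 was 0.66 log2 (SE 0.51, adjusted p = 0.545).

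Promoter letters were examined for the E-box through which TFEB family factors act. Windows of 300 bases, 250 before and 50 after the annotated start, came from RefSeq (GRCh38.p14) and held 28 of the 37 genes; the other 9, which include the called members CTSB, PSAP and RRAGD, were not analysed here. The core CACGTG, and the longer TCACGTGA that contains it, read the same on both strands. The core was present in 10 of the 28 genes, and in 8.77% of the 27305 genes with a window. The longer motif was present in 6 of the 28 (ATP6V0D1, CLN3, CTSA, GAA, LAMP1 and MCOLN1) and in 1.18% of all. Over single windows, the shares were 7.26% and 0.98% of 35116. Genes can have several windows and were counted once if any window matched. Of the 5 sequences shown, 4 hold the longer motif and differed in their change in #10: LAMP1 (0.11 log2), MCOLN1 (-0.04 log2), GAA (1.61 log2) and ATP6V0D1 (-0.85 log2). SCARB2, which rose by 3.16 log2, holds neither motif in this window. Capitals mark the core.
LAMP1, chr13:113296989-113297288, plus strand: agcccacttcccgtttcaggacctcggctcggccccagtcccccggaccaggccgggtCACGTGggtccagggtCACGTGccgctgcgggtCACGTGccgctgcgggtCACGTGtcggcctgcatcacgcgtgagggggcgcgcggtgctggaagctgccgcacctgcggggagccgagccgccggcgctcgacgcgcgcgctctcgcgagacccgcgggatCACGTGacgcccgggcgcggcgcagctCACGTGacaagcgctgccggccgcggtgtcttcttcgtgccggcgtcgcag
MCOLN1, chr19:7522374-7522673, plus strand: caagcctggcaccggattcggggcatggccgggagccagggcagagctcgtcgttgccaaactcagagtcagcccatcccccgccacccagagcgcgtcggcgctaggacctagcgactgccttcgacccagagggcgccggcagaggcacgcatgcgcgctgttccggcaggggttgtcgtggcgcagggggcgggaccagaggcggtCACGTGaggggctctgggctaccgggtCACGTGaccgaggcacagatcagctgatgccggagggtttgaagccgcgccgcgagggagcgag
GAA, chr17:80101331-80101630, plus strand: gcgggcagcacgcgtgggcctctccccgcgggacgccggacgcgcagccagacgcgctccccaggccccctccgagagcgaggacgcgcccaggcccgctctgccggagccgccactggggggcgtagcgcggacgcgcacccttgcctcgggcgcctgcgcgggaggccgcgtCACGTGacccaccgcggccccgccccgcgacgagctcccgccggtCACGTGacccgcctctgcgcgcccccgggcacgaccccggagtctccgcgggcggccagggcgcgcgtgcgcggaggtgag
ATP6V0D1, chr16:67481108-67481407, minus strand: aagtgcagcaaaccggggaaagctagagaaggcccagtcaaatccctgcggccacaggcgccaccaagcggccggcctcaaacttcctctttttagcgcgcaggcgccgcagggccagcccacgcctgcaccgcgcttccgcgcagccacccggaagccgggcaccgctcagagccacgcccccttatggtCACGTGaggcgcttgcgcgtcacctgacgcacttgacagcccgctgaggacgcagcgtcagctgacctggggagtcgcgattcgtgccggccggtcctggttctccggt
SCARB2, chr4:76213775-76214074, minus strand: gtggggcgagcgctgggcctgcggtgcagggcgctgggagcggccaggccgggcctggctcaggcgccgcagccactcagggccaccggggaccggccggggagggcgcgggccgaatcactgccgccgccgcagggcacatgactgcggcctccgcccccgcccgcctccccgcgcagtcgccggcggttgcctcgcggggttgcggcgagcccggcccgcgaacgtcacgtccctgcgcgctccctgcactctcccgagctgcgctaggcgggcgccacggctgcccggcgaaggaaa

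LAMP1 held 6 copies of the core. In its brightest probe set, the largest difference of LAMP1 from same-day scramble was -0.32 log2, in #3 at day 2. A dimmer one gave 0.34 log2 in #10 at day 5. GAA and MCOLN1 held 2 each, both within the longer motif. In #10 the 10 genes with the core had changes of -0.85 to 1.61 log2 (median 0.27), and the 18 without it -1.37 to 3.16 log2 (median 0.71), with only SCARB2 and NPC2 of the called members among the 28. Both ranges lie on either side of 0. NPC2, TPP1 and CTSL also had no match. A match is a description of letters, not a binding site, and no match says only that these letters are not in the window.

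**Figure D4:**
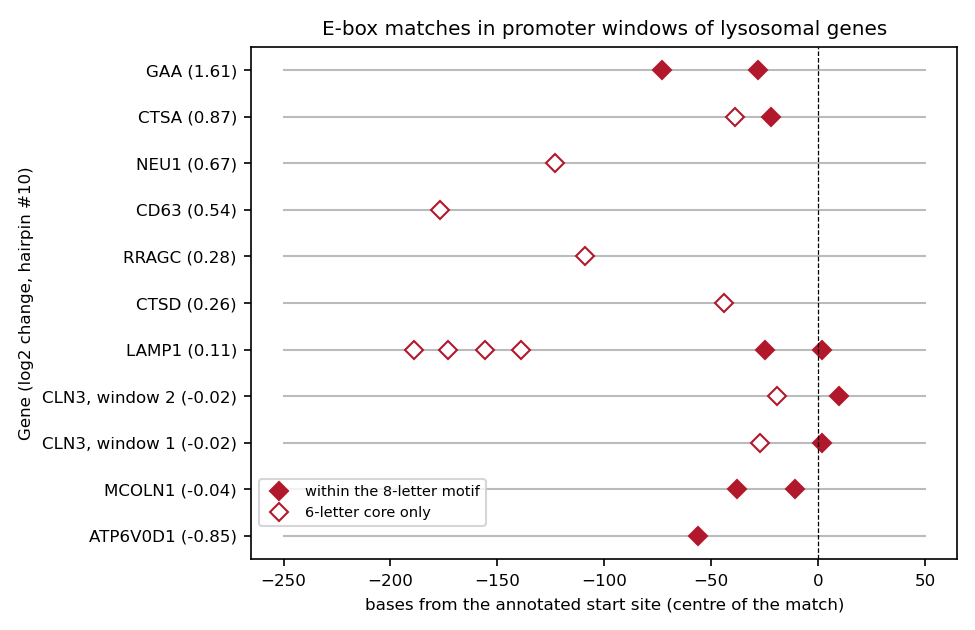
Position of each core match (diamonds, filled where it lies within the longer motif) in the promoter windows of 10 lysosomal genes, in bases from the annotated start site, ordered by the log2 change in hairpin #10 given in brackets. GAA, with 1.61 log2, and MCOLN1, with -0.04 log2, both hold 2 filled matches, at -73 and -28 bases in GAA and at -38 and -11 bases in MCOLN1.

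The days were compared with the hairpins as repeats. At day 2, 0 of 37 members passed for shCDK2 against scramble, with 0% of all tested genes. All 3 hairpin arrays lay above scramble for 19 members and below for 4, as they did for 25.6% and 26.5% of all tested genes, and the median was 0.27 log2 (all genes 0.02). SCARB2 (1.14 log2), NPC2 (1.06 log2), RRAGD (1.05 log2) and TPP1 (1.00 log2) had the largest increases among members of 1 sign in all 3 hairpins, and CLN6 (-1.33 log2), ATP6V0D1 (-0.54 log2), GLA (-0.45 log2) and ATP6V1A (-0.17 log2) the largest decreases. Unadjusted, 1 member was higher and 1 lower with a p under 0.05, where 3.44% of all tested genes were. At day 5, 0 of 37 passed, again with 0%. There 13 members lay above scramble with all 3 hairpins and 3 below (16% and 30% of all tested genes), and the median was 0.32 log2 (all genes -0.09). Among members of 1 sign in all 3 hairpins, the values led with SCARB2 (2.66 log2), CTSL (1.72 log2), CTSB (1.23 log2) and CTSH (1.02 log2), and ended with CLN6 (-0.54 log2), ATP6V0D1 (-0.45 log2) and GLA (-0.36 log2). In the second SCARB2 probe set above the filter the hairpins differed in sign. Its differences in #1, #3 and #10 were 0.10, -0.07 and 0.66 log2 at day 2 and -0.29, 0.19 and 1.43 log2 at day 5. Unadjusted, 1 member was higher and 0 lower, with 1.33% of all tested genes past the threshold.

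Within the hairpins, day 5 against day 2 gave 0 calls among the 37 and 0% of all tested genes. Unadjusted, 3 members were higher and 1 lower at day 5, with 2.02% of all tested genes past the threshold. Among members of 1 sign in all 3 hairpins, CTSL (1.54 log2), ATP6V0D1 (0.76 log2), NPC2 (0.57 log2) and CLN6 (0.52 log2) were higher at day 5, and RRAGD (-0.93 log2) and GLA (-0.11 log2) lower; scramble moved by 0.67 log2 for ATP6V0D1, 0.61 for NPC2 and -0.74 for RRAGD between the same days. The knockdown change at day 5 minus that at day 2 gave 0 calls too, with 0% of all tested genes, and 0 members had an unadjusted p under 0.05 (1.28% of all tested genes). Among members of 1 sign in all 3 hairpins, CTSL (1.53 log2), SCARB2 (1.52 log2), CLN6 (0.79 log2) and CTSB (0.70 log2) had the largest differences, and GRN (-0.56 log2), TFEB (-0.23 log2) and NPC1 (-0.20 log2) the lowest. The SCARB2 value comes from the probe set whose scramble signal was low at day 5. The members named in these 4 comparisons had adjusted p = 0.913 at day 5 and 0.9999 in the others.

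Single hairpins differed in which day held the larger difference from scramble, which has no replicate check. With #3, 30 of 37 members stood higher relative to scramble at day 5 than at day 2 (48.6% of all tested genes did), and their median went from 0.17 to 0.57 log2. With #10, 16 of 37 did (45.0% of all tested genes), with medians of 0.57 and 0.41 log2. With #1, 17 of 37 did (44.1% of all tested genes), with medians of 0.08 and -0.03 log2. Members more than 1 log2 above scramble numbered 13 at day 2 and 9 at day 5 with #10, 1 and 8 with #3, and 0 and 1 with #1. Of all tested genes, 6.80% and 5.57% were that far above scramble with #10, 1% and 6.2% with #3, and 0.304% and 0.319% with #1. With the #3 array of day 2 left out, whose CDK2 signal lay near that of scramble, #3 rested on its day 5 array alone. GAA, NPC2 and TPP1 then had 1.86, 1.90 and 2.37 log2 in #3. A fit with that array and the scramble array of day 5 both left out had 1 residual degree of freedom. It set #3 at day 5 only beside scramble at day 2 only. The #10 array of day 5, at 92.9% of same-day scramble in CDK2, stayed in. GAA, NPC2 and TPP1 had 2.15, 2.19 and 2.69 log2 in #3, and TPP1, CTSB and CLN6 had 2.00, 1.56 and -1.83 log2 in #10.

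Markers of mature myeloid cells moved with some of the same arrays. In the list of 7 monocyte and macrophage genes, the mean signal was 5.31 to 5.60 log2 on the 4 arrays of day 2 and the scramble and #1 arrays of day 5, 6.47 log2 in #3 at day 5 and 7.97 log2 in #10 at day 5. CD14, the endotoxin co-receptor, was between 5.15 and 5.76 log2 on those 6 arrays, 8.43 in #3 and 10.65 log2 in #10 at day 5. CD163, the haemoglobin scavenger receptor, was at most 4.88 log2, then 7.92 and 10.27 log2. MARCO, a scavenger receptor, was 8.95 log2 in #10 at day 5 and at most 6.14 log2 elsewhere. MRC1 and MSR1 stayed under the filter of 5.83 log2 on all arrays. CTSL and CTSB were also highest on the #10 array of day 5. On the #10 array of day 2, CD14 was 5.76 and CD163 4.70 log2. The 5 called members (CTSB, PSAP, SCARB2, NPC2 and RRAGD) lay above every scramble and #1 array there. That array was part of the fit that called them, so this was partly set by how they were chosen. ITGAM, an integrin of granulocytes and monocytes, was 11.16 log2 in #10 at day 2, 10.20 in #10 and 10.51 in #3 at day 5, and between 6.88 and 8.14 log2 elsewhere. In the fit of #10 against scramble, which called 2.01% of all tested genes, 3 marker genes rose. They were the neutrophil granule genes CAMP (1.07 log2, adjusted p = 0.0428) and MMP9 (2.61 log2, adjusted p = 0.0456), and the lymphoid gene CD3D (2.25 log2, adjusted p = 0.0133). The neutrophil genes LTF, LCN2 and CEACAM8 had means under the filter and were not tested. At day 2 they were 4.79, 5.76 and 3.59 log2 in #10, beside 4.93, 5.77 and 3.40 in scramble. At day 5 they were 4.97, 5.59 and 3.36 log2 in #10, beside 5.24, 5.97 and 3.52 in scramble. CAMP was 7.77 and 7.56 log2 in #10 and at most 6.89 log2 elsewhere, and MMP9 was 12.73 and 13.75 log2 in #10, 13.77 log2 in #3 at day 5 and 9.96 to 12.16 log2 elsewhere. PRTN3, a primary granule protease of promyelocytes, had -1.10 log2 (adjusted p = 0.0564), and CD14, CD163, MARCO and ITGAM did not pass (adjusted p = 0.180, 0.256, 0.170 and 0.0970). The other promyelocyte genes did not pass and differed in sign. MPO, ELANE and CTSG had -0.52, -0.23 and -0.60 log2 in #10, and AZU1 and MYB 0.39 and 0.38 log2. The lymphoid genes CD3E and CD79A had -0.05 and -0.20 log2. The part of these markers in the lysosomal values was not tested. List means were 9.56 to 10.37 log2 for 6 promyelocyte genes, 6.24 to 7.63 for 6 neutrophil genes, 6.62 to 7.24 for 4 lymphoid genes, 6.72 to 7.25 for 4 erythroid and megakaryocyte genes and 5.78 to 6.10 log2 for 5 fibroblast and epithelial genes. CD3D was 11.27 and 10.85 log2 in #10 and 8.81 to 9.54 log2 elsewhere.

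**Figure D5:**
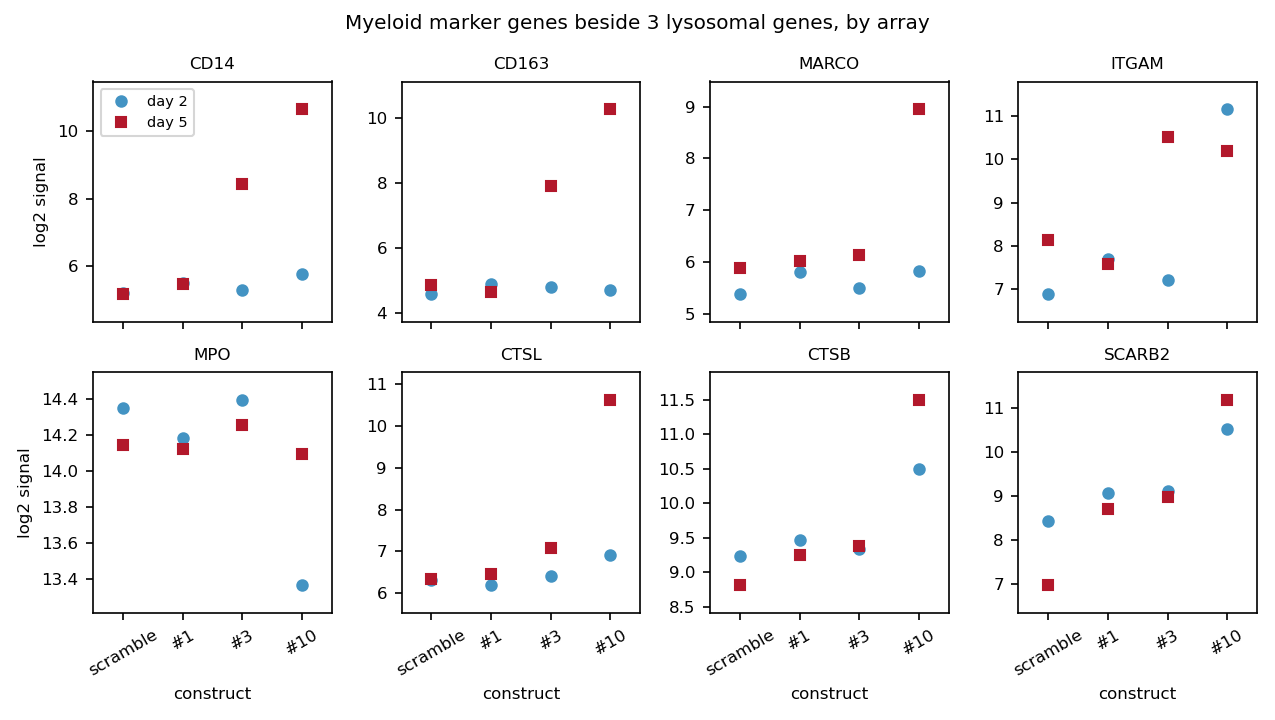
Log2 signal (vertical axes, each with its own range) of 5 myeloid marker genes and of CTSL, CTSB and SCARB2 on the 8 arrays, by construct and day (blue circles day 2, red squares day 5). CD14 and CD163 are high on the #3 and #10 arrays of day 5, and MARCO and CTSL on the #10 array of day 5.

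Other genes of the lysosome and of autophagy were taken from lists of 113 names, of which 92 were tested. In #10, 4 of the 92 rose and 0 fell (2.01% of all tested genes were called), 63 were above 0 (38.7% of all tested genes) and the median was 0.22 log2 (all genes -0.09). DNASE2, the acid DNase of lysosomes, was 7.52, 7.83, 8.15 and 9.12 log2 at day 2 and 7.40, 7.65, 8.43 and 8.95 log2 at day 5 in scramble, #1, #3 and #10 (1.58 log2 in #10, SE 0.19, adjusted p = 0.0170). RNASET2, an acid ribonuclease, had 1.49 log2 (SE 0.27, adjusted p = 0.0459), CD68, a macrophage lysosomal glycoprotein, 1.29 log2 (SE 0.24, adjusted p = 0.0488), and WIPI1, an early autophagosome protein, 1.59 log2 (SE 0.28, adjusted p = 0.0453). By list, those above 0 in #10 were 7 of 7 further proteases (median 0.48 log2), 15 of 21 further glycosidases, sulfatases and lipid enzymes (0.44 log2), 15 of 20 membrane proteins (0.18 log2), 8 of 13 pump subunits (0.13 log2), 6 of 13 regulators (-0.08 log2), 4 of 8 sorting genes (-0.05 log2) and 8 of 10 autophagy genes (0.55 log2). In #3, #1 and #10 against #1, 0 of the 92 passed, where 0.0311%, 0% and 0.327% of all tested genes did. In that order 56, 41 and 68 were above 0, against 40.9%, 46.3% and 41% of all tested genes, with medians of 0.07, -0.02 and 0.33 log2 (all genes -0.07, -0.02 and -0.08).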

How the data were processed

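Total RNA from 8 NB4 samples was hybridised to Affymetrix arrays. The deposited values are log2 signals, by their range, for 49395 probe sets. The submitters' processing notes name Partek, whose version and normalization are not stated in any source used. Genes were named through the platform annotation and a RefSeq table (44994 probe sets of 1 gene, 1832 of several, 2569 of none). Tests took the values as deposited and covered the 12845 genes whose mean passed 5.83 log2, the 40th percentile over probe sets.

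Two-sided tests used limma 3.58.1 (R 4.3.3) with Benjamini-Hochberg adjustment over all tested genes. Each hairpin was compared with scramble, and #10 with #1, in a model of construct plus day (residual degrees of freedom 3, prior 4.54). Comparisons of days used a mean per arm and day, with hairpins as repeats (residual degrees of freedom 4, prior 3.13), and the lone scramble array was assumed to vary like the hairpin arrays. The hairpin comparisons share the scramble arrays. The scripts were tested on simulated data. Named genes were all called members, then the 4 with the largest change per direction and 1 sign throughout. All 37 are given by value. Extra probe sets are given for some genes only, and those not given can differ. The members and lists were chosen with earlier results of these data known. Some probe sets may also match related transcripts. The number of arrays limits the precision. Figures were drawn with matplotlib 3.10.9. The alternatives were other scalings, filters, a probe set mean, a trended prior, leaving out arrays and a replicate block.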

Additional observations from a re-analysis of the deposited data

How the results depend on the processing

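With hairpin #10 against scramble, 5 members passed as reported. Median centring gave 2, averaged probe sets 2 (PSAP and SCARB2 both times), quantile normalization 7 and leaving out single arrays or hairpins 0 to 13. With #3 leaving out gave 0 to 3, and with #10 against #1 it gave 0 to 7, the probe set mean 1 and a trended prior 2. Leaving out both the #3 array of day 2 and the scramble array of day 5, chosen after seeing the data, gave 13 in #10, 8 in #3 and 15 in #10 against #1, with 16%, 4.31% and 12% of all tested genes called. With averaged probe sets TFE3 turned to 0.096 log2 in #10 and 0.078 log2 against #1. Leaving out hairpin arrays, GLA at day 5 against day 2 ran from -0.25 to 0.042 log2, and in the difference of changes NPC1 ran from -0.37 to 0.061 and CTSB from -0.022 to 1.10 log2. Same-numbered hairpins (#1, #3 and #10) correlated at 0.72, -0.23 and 0.43 between days, so the numbers were not taken as pairs in the pooled comparisons of days. The fits per construct did take the 2 days of a number as repeats, also for #3 with its -0.23. The replicate block gave 0 members called at day 5 against day 2, with CTSL at 1.54 log2. In the other comparisons 0 members passed in every alternative run. Signal over background was not used here.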

Other observations

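Some lysosomal genes differed between the 2 scramble arrays alone, a difference that has no replicate check. From day 2 to day 5 in scramble, SCARB2 went from 8.43 to 6.96 log2, RRAGD from 8.15 to 7.41 log2, CTSS from 7.90 to 8.64 log2, ATP6V0D1 from 10.47 to 11.15 log2 and NPC2 from 8.84 to 9.45 log2. CTSL moved by 0.02 log2 and ASAH1 by -0.01 log2 between the same arrays.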
